A study of Homo sapiens with 12 samples.

Results

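The heat shock proteins and their cytosolic and mitochondrial co-chaperones were followed as 40 genes, chosen by name with earlier results of these data known. They cover the HSP70, HSP110, HSP40, HSP90 and small heat shock protein families, the mitochondrial chaperonin and 5 of the subunits of the cytosolic chaperonin TRiC. Also included are 6 co-chaperones and the transcription factors HSF1 and HSF2. The 40 genes filled 41 of the 58735 rows of the expression table, because HSPA14 is annotated as a pair of overlapping genes. RNA came from HepaRG cells, a human hepatic cell line labelled WT in every group, with 3 libraries in each of 4 groups. PA+OA cells received 400 µM deuterium-labelled palmitate (PA), a saturated fatty acid, together with 200 µM oleate (OA), a monounsaturated one, for 4 h, which makes 600 µM of fatty acid in all. PA+BMS cells were given BMS-309403, which inhibits the lipid chaperone FABP4, at 50 µM for 24 h, and palmitate at 400 µM for 4 h. PA cells received 400 µM palmitate alone for 4 h, and control cells were untreated. No group analysed here had oleate alone or BMS-309403 alone, so an effect of either without palmitate was not measured. Whether replicates were grown apart is not in the labels, and p-values therefore measure only the spread between these libraries, which may be technical.

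Heat shock proteins bind unfolded protein. HSP70 works in a cycle in which a J-domain partner of the HSP40 family delivers the client and triggers ATP hydrolysis, and a nucleotide exchange factor (the HSP110 and BAG families) lets the client go. HSP90 and its co-chaperones finish the folding of kinases and steroid receptors, TRiC folds actin and tubulin, and HSPD1 with HSPE1 folds proteins in the mitochondrial matrix. Under proteotoxic stress HSF1 forms trimers that bind heat shock elements, inverted repeats of GAA units in the promoters of the inducible genes, whereas constitutive members such as HSPA8 and HSP90AB1 are abundant in unstressed cells.

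Promoters are shown for 4 members with large rises in PA+OA cells and for 3 members that did not pass the test there, so that their heat shock elements can be compared. Each runs from 250 bases before to 50 bases after the start given by RefSeq on GRCh38.p14, on the gene's own strand. Capitals mark 2-unit elements, a GAA and a TTC with any 2 bases between them in either order, and the 3-unit elements in which a further GAA or TTC follows in alternation at the same spacing. Each 3-unit element thus contains 2-unit ones. The elements and the genes shown were picked after expression values and matches had been seen, and for DNAJB1, HSP90AA1 and HSPD1, which have several starts, the start with the most matches is shown. HSPA6 is at chr1:161524290-161524589 (+ strand), HSPA1A at chr6:31815293-31815592 (+ strand), HSPA1B at chr6:31827488-31827787 (+ strand), DNAJB1 at chr19:14518348-14518647 (- strand), HSPA8 at chr11:123062087-123062386 (- strand), HSP90AA1 at chr14:102086995-102087294 (- strand) and HSPD1 at chr2:197499791-197500090 (- strand).
HSPA6: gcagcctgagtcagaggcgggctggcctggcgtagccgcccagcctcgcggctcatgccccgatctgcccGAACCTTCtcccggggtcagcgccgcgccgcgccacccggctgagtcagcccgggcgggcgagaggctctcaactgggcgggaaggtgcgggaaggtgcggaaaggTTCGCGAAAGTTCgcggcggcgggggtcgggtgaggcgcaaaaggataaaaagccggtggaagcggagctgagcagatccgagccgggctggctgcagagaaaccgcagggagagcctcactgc
HSPA1A: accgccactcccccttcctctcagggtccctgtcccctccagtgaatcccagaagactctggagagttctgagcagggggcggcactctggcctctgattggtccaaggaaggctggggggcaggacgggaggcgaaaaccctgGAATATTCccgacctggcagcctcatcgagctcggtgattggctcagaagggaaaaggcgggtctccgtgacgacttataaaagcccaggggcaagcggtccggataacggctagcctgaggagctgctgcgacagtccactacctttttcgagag
HSPA1B: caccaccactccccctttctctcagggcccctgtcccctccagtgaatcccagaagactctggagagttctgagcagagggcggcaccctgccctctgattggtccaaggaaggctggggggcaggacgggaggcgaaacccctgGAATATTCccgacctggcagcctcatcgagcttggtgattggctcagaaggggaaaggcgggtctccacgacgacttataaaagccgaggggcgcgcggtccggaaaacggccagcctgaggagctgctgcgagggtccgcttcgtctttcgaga
DNAJB1: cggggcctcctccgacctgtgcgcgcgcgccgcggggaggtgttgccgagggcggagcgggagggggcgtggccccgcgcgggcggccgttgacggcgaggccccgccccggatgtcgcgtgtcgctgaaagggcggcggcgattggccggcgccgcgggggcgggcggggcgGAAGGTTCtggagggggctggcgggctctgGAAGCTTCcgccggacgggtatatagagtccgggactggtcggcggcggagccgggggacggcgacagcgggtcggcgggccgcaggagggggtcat
HSPA8: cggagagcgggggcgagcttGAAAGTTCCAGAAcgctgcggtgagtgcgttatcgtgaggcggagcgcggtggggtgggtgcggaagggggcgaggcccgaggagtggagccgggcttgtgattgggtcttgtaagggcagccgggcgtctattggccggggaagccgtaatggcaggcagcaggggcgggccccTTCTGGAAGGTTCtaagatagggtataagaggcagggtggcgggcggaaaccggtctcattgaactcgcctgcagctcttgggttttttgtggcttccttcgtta
HSP90AA1: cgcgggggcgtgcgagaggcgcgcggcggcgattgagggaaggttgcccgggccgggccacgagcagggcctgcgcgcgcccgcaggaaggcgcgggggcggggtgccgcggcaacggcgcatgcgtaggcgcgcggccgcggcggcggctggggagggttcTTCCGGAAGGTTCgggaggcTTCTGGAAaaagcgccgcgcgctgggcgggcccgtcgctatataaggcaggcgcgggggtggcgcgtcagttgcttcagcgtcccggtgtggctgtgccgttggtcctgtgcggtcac
HSPD1: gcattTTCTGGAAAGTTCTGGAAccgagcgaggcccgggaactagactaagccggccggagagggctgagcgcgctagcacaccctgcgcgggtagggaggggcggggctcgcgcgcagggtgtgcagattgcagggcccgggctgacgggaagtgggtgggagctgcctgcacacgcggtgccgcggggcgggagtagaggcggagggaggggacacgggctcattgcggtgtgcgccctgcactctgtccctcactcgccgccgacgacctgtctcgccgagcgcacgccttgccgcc

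RefSeq promoters were matched for 35 of the 40 members, 48 promoters in all. A 2-unit element, searched on both strands, was found in 21 of these 48 (43.8%), against 13.5% of all 35116 promoters in the table. A 3-unit element was found in 8 of the 48 (16.7%), against 0.490% of all promoters, and those 8 belonged to CHORDC1, DNAJA1, DNAJB6, HSP90AA1, HSP90AB1, HSPA6, HSPA8 and HSPD1. HSPA1A and HSPA1B carried the same 2-unit element, GAATATTC, in otherwise similar promoters. Among the members that rose in PA+OA cells against PA cells, 7 of 12 promoters held a 2-unit element and 1 of 12, that of HSPA6, held a 3-unit element, and among the other members 14 of 36 and 7 of 36 did. Some of the 48 promoters overlap or are alternative starts of 1 gene, so they are not separate counts. The promoter of HSPA1L (chr6:31815234-31815533), among the other members, overlaps that of HSPA1A and holds the same GAATATTC. All of these elements are matches of letters within 300 bases and say nothing about binding.

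The values are FPKM, fragments scaled by gene length and by a library size that was 0.827 to 1.14 times the recovered reads. Gene length counts all exon bases of a gene, so the order of levels between genes depends on it. Gene positions are on GRCh38, as in GENCODE 29. The recovered whole reads summed to between 16059128 and 19971190 per library. The 11856 genes that reached 1 FPKM in 3 or more libraries were tested, and a gene is said to have risen or fallen where limma on log2(FPKM + 1) gave a Benjamini-Hochberg adjusted p under 0.05, two-sided. Log2 changes are on that scale and understate the change of genes of low FPKM. Of the 41 member rows, 39 were tested. CRYAB, a small heat shock protein, and HSPA2, an HSP70 known best from testis, stayed below the filter: CRYAB averaged 0.855 FPKM in PA+OA, 0.403 in PA+BMS, 0.694 in PA and 0.471 FPKM in control libraries, and HSPA2 averaged 0.179 FPKM in PA+OA, 0.0581 in PA+BMS, 0.134 in PA and 0.314 FPKM in control libraries. The 39 tested rows passed a filter on level, so counts over them are given beside the same share of all tested genes.

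PA+OA replicate 1 and PA+BMS replicate 3 stood at opposite ends of the first principal component of all tested genes, at -54.6 and 51.5, which took 54.4% of the variance, and results are given without them where that matters. Control replicate 1 lay below both other control libraries for 29 of the 39 tested members (74.4%), against 40.5% of all tested genes. Hepatocyte markers were at or near 0: all 9 stayed under 1 FPKM in every library, and ALB and FABP1 had no read in any. Among 5 bile duct markers only KRT7 reached 1 FPKM, and the list summed to 520 to 917 FPKM in PA+OA, 140 to 185 in PA+BMS, 571 to 669 in PA and 477 to 564 FPKM in control libraries. Stellate and fibroblast markers, of which 3 of 6 reached 1 FPKM, summed to 15.9 to 20.1 FPKM in PA+OA, 14.4 to 15.8 in PA+BMS, 20.02 to 20.5 in PA and 18.8 to 20.6 FPKM in control libraries, with no read of LRAT. Blood and endothelial markers, of which CDH5 and HBB reached 1 FPKM, summed to 0.370 to 0.454 FPKM in PA+OA, 0.354 to 0.468 in PA+BMS, 1.06 to 6.70 in PA and 1.38 to 1.83 FPKM in control libraries. The top of the PA range came from HBB, at 5.32 FPKM in PA replicate 2 and at most 0.046 FPKM in any other library. The part of these markers in the members' results was not tested, and in bulk RNA fewer cells of a type and less RNA per cell cannot be told apart.

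Oleate added to palmitate was compared with palmitate alone. The members that rose were HSPA6, HSPA1A and HSPA1B of the HSP70 family, the J-domain proteins DNAJB1, DNAJB4 and DNAJB2, the exchange factors BAG3 and HSPH1, and the small heat shock protein HSPB8. These were 9 of the 39 tested members (23.1%, HSPA6 having passed the filter only with the PA+OA libraries), against 4.01% of all tested genes that rose. None fell, by limma, at an unadjusted p under 0.05 or by voom, against 3.91% of all tested genes that fell by limma. The median log2 change was 0.20 over the members and -0.0024 over all tested genes. Without both libraries that stand apart, 14 members rose and 1, TRAP1, fell. Of all 11856 tested genes, 1328 rose and 1688 fell in that fit.

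The largest change was that of HSPA6 (ENSG00000173110, chromosome 1, 161524540 to 161526910), an HSP70 that human cells make almost only under stress. Outside PA+OA libraries it reached 1 FPKM only in control replicates 2 and 3. It was thus tested only because of the group where it was high. Without a filter HSPA6 rose as well, and of the called rises only that of HSPH1 was lost. HSPA6 had 28.8, 21.8 and 23.2 FPKM in PA+OA libraries and 0.707, 0.865 and 0.766 FPKM in PA libraries. All PA+OA libraries lay far above all PA libraries, a 31.6-fold difference of the mean FPKM (log2 3.84, SE 0.39, adjusted p = 0.000127, limma). HSPA1A (ENSG00000204389, chromosome 6, 31815464 to 31817946) and HSPA1B (ENSG00000204388, chromosome 6, 31827735 to 31830255), the main inducible HSP70 genes, lie side by side on chromosome 6. HSPA1A had 521, 495 and 526 FPKM in PA+OA libraries and 96.2, 82.2 and 98.9 FPKM in PA libraries. HSPA1B had 280.1, 261 and 283 FPKM in PA+OA libraries and 66.9, 55.0 and 63.6 FPKM in PA libraries. Both were several-fold higher in every PA+OA library, with a log2 change of 2.47 for HSPA1A (SE 0.33, adjusted p = 0.00114, limma) and 2.14 for HSPA1B (SE 0.36, adjusted p = 0.00349). The split between them is uncertain, because 67.1% of the 150-base windows of HSPA1A transcripts occur unchanged in HSPA1B and 66.0% the other way round, so their FPKM were also added. The sum was 801, 757 and 809 FPKM in PA+OA, 59.4, 51.8 and 52.8 in PA+BMS, 163, 137 and 162 in PA and 105, 342 and 341 FPKM in control libraries. PA+OA stood highest and PA+BMS lowest, with no overlap between either and the other groups. The sum rose 5.11-fold in PA+OA against PA (log2 2.35, SE 0.35, adjusted p = 0.00187).

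DNAJB1 (ENSG00000132002, chromosome 19, 14514770 to 14529770), the chief inducible J-domain partner of cytosolic HSP70, had 423, 343 and 348 FPKM in PA+OA libraries and 138, 113 and 113 FPKM in PA libraries. It was 3.06-fold higher on average (log2 1.61, SE 0.21, adjusted p = 0.00104, limma), and its exons share 211 bases with TECR, transcribed from the opposite strand. BAG3 (ENSG00000151929, chromosome 10, 119651370 to 119677819), an exchange factor that couples HSP70 to HSPB8 and to selective autophagy, had 102, 106 and 119 FPKM in PA+OA libraries and 41.6, 42.2 and 43.6 FPKM in PA libraries. HSPB8, its small heat shock protein partner, had 36.3, 35.7 and 34.9 FPKM in PA+OA libraries and 19.5, 21.2 and 21.0 FPKM in PA libraries. Neither pair of groups overlapped, and BAG3 rose 2.57-fold (log2 1.34, SE 0.18, adjusted p = 0.00104, limma) and HSPB8 1.73-fold (log2 0.77, SE 0.10, adjusted p = 0.000926, limma).

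DNAJB4, another J-domain partner of HSP70, had 15.3, 9.26 and 10.6 FPKM in PA+OA libraries and 5.68, 6.04 and 5.02 FPKM in PA libraries. DNAJB2, a J-domain protein that also binds ubiquitin, had 18.2, 14.6 and 12.9 FPKM in PA+OA libraries and 8.34, 8.73 and 8.62 FPKM in PA libraries. In both genes, PA+OA replicate 1 was the highest library, and the remaining PA+OA libraries were still above every PA library. The changes were 2.10-fold for DNAJB4 (log2 0.93, SE 0.18, adjusted p = 0.00803, limma) and 1.78-fold for DNAJB2 (log2 0.75, SE 0.15, adjusted p = 0.0103, limma). HSPH1 (ENSG00000120694, chromosome 13, 31134974 to 31162388), an HSP110 exchange factor, had 10.02, 13.6 and 18.1 FPKM in PA+OA libraries and 6.7, 5.92 and 6.44 FPKM in PA libraries. Its PA+OA values spread widely, PA+OA replicate 1 being the lowest, and the rise just passed the test (log2 0.98, SE 0.27, adjusted p = 0.0452, limma). The rise of HSPH1 was lost on leaving out any of 8 libraries in turn, up to an adjusted p of 0.154, whereas the other 8 rises held in all 12 such fits.

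**Figure D1:**
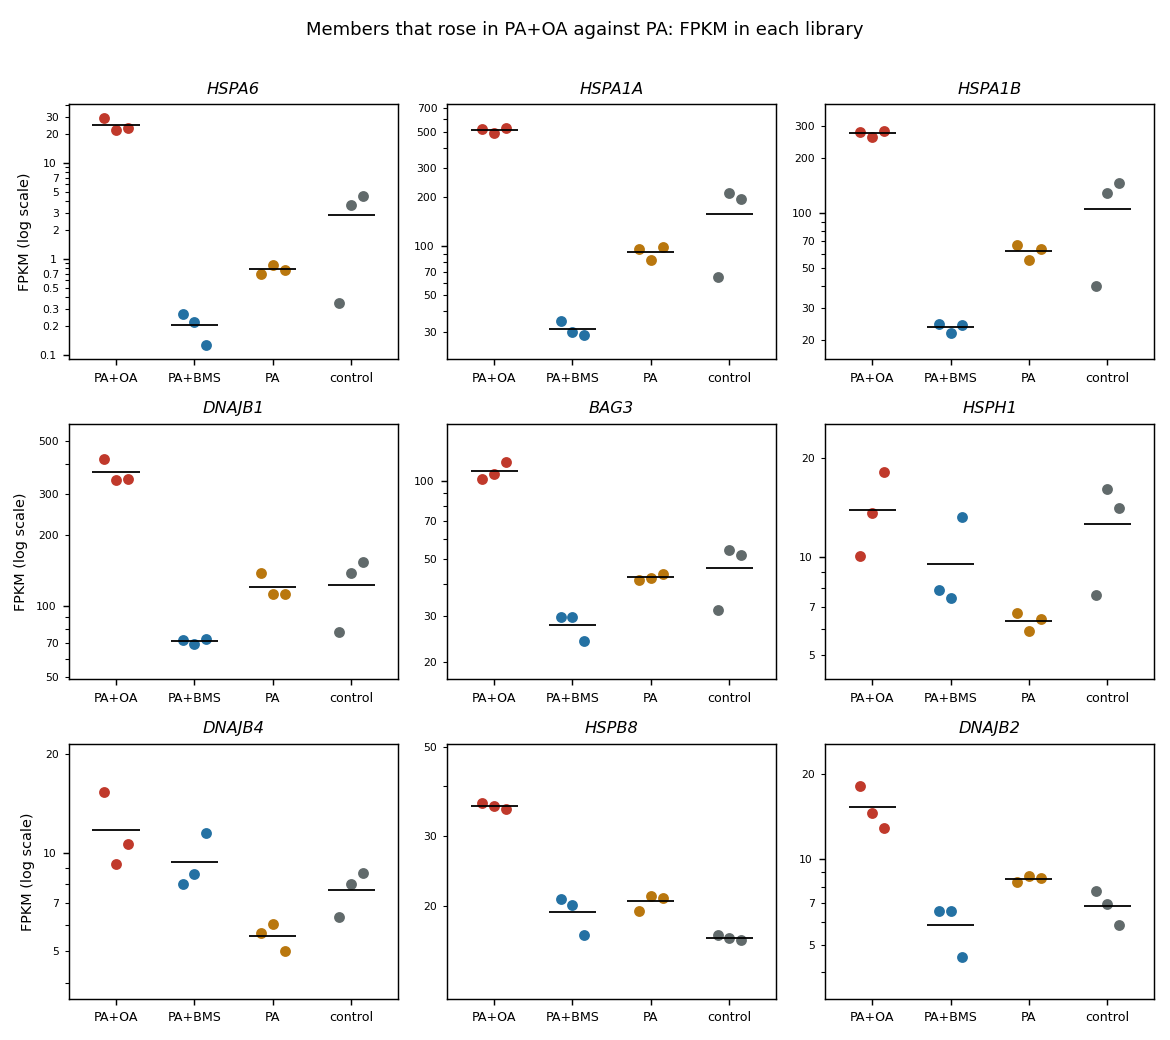
FPKM on a log scale (y axis) of the 9 members that rose in PA+OA against PA, in each of the 12 libraries (points, by group on the x axis), with a line at each group mean. For every gene the 3 PA+OA points lie above the 3 PA points, and for HSPA1A, HSPA1B, DNAJB1 and BAG3 control replicate 1 is the lowest control point.

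Several abundant members did not pass this test. HSPA8, the abundant constitutive HSP70, had 541, 583 and 547 FPKM in PA+OA libraries and 432, 386 and 405 FPKM in PA libraries, without overlap but short of the threshold (log2 0.45, SE 0.15, adjusted p = 0.101, limma). HSP90AA1, the inducible HSP90, had 131, 119 and 140.1 FPKM in PA+OA libraries and 89.6, 53.9 and 83.2 FPKM in PA libraries, also without overlap (log2 0.81, SE 0.30, adjusted p = 0.129, limma). HSP90AB1, its constitutive counterpart, had 857, 982 and 911 FPKM in PA+OA libraries and 947, 863 and 873 FPKM in PA libraries, with groups that overlapped (log2 0.03, SE 0.14, adjusted p = 0.94, limma). HSPB1, a small heat shock protein, averaged 369 ± 90.4 FPKM in PA+OA and 246 ± 21.7 FPKM in PA libraries (SD, n = 3 each) and missed the threshold (adjusted p = 0.11, limma), as did DNAJA1 at 0.141. HSPA8, HSPA9 and HSPB1 passed once the trend with gene length and GC content had been removed from every library, and all 9 rises held there. Without both libraries that stand apart, HSP90AA1 (adjusted p = 0.0326), HSPA8 (0.0444), HSPA9 (0.0164), HSPB1 (0.0231) and HSPA14 (ENSG00000284024, 0.0354) rose as well by limma, and HSP90AA1 and HSPB1 also did so without PA+BMS replicate 3 alone.

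Ratios within a library do not depend on how libraries were scaled. The summed HSPA1A and HSPA1B FPKM were 1.48, 1.30 and 1.48 times that of HSPA8 in PA+OA libraries, 0.201, 0.163 and 0.159 times in PA+BMS, 0.378, 0.355 and 0.401 times in PA and 0.259, 0.566 and 0.614 times in control libraries. In FPKM, the inducible pair thus exceeded the constitutive gene in every PA+OA library and in none of the other 9. FPKM divides by all exon bases of a gene, 4849 for HSPA8 and 2483 for HSPA1A. Their longest coding transcripts hold 2314 and 2334 windows of 150 bases. Which gene is higher within a library therefore depends on the length used, whereas differences of the ratio between groups do not. DNAJB1 was 6.15, 5.51 and 4.82 times DNAJA1 in PA+OA, 1.16, 1.11 and 0.900 times in PA+BMS, 2.66, 2.57 and 2.21 times in PA and 1.15, 1.27 and 1.55 times in control libraries. This ratio was higher in every PA library than in any control library, with DNAJA1 lower in PA libraries and no change of DNAJB1 past the threshold. The trend with GC content and gene length was not removed from these ratios. GC content was 53.1% for DNAJB1 and 41.7% for DNAJA1, and 59.7% for HSPA1A, 58.8% for HSPA1B and 47.0% for HSPA8. With that trend removed, PA against control gave log2 -0.22 for DNAJB1 and -0.61 for DNAJA1, against 0.027 and -0.87 before. HSPA6 FPKM was 3.74 to 5.33% of that of HSPA8 in PA+OA libraries and at most 0.820% in any other.

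**Figure D2:**
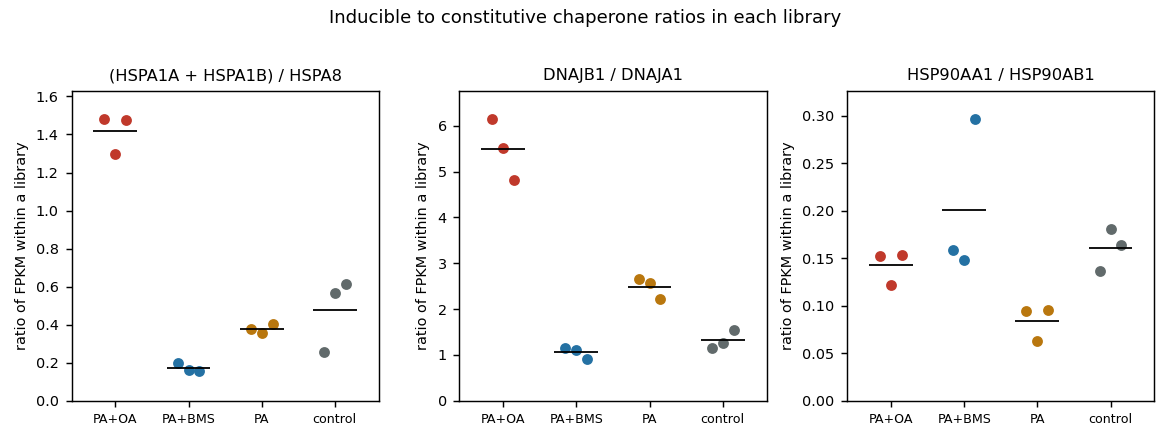
Ratio of FPKM within each library (y axis, linear from 0) by group (x axis) for HSPA1A plus HSPA1B over HSPA8, DNAJB1 over DNAJA1 and HSP90AA1 over HSP90AB1, with points for libraries and lines for group means. PA+OA points lie highest in the first and second panels (1.30 to 1.48 and 4.82 to 6.15), and PA points lie lowest in the third.

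Palmitate alone was compared with untreated cells. Here HSPA6, HSPA1A and HSPA1B did not pass the test, and most called members fell: 11 of 39 (28.2%, against 14.8% of all tested genes), while 2 rose (5.13%, against 12.8%). The falls were HSP90AA1, the J-domain protein DNAJA1, the HSP110 proteins HSPH1 and HSPA4, the mitochondrial chaperones HSPD1 and HSPA9, the HSP90 partner CHORDC1, the TRiC subunits CCT8 and CCT2, HSPA14 (ENSG00000187522) and HSF2. The rises were TRAP1, the mitochondrial HSP90, and HSF1. The median log2 change was -0.34 over the members and 0.028 over all tested genes.

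HSP90AA1 (ENSG00000080824, chromosome 14, 102080738 to 102139699) had 89.6, 53.9 and 83.2 FPKM in PA libraries and 121, 192 and 189.8 FPKM in control libraries. Every PA library was below every control library, at 0.451 of the control mean (log2 -1.14, SE 0.30, adjusted p = 0.019, limma). DNAJA1 (ENSG00000086061, chromosome 9, 33025211 to 33039907) had 51.9, 44.0 and 50.9 FPKM in PA libraries and 67.7, 109 and 99.4 FPKM in control libraries, and it too was lower in each PA library (log2 -0.87, SE 0.17, adjusted p = 0.00699, limma). HSPD1 (ENSG00000144381, chromosome 2, 197486581 to 197516737), the HSP60 subunit of the mitochondrial chaperonin, had 121, 103 and 119 FPKM in PA libraries and 166, 216 and 231 FPKM in control libraries, with no overlap (log2 -0.82, SE 0.18, adjusted p = 0.011, limma). HSPE1, the HSP10 lid of the same chaperonin, which shares 281 exon bases with HSPD1 on the opposite strand, had 17.9, 20.5 and 18.0 FPKM in PA libraries and 22.8, 23.9 and 23.5 FPKM in control libraries and did not pass (log2 -0.30, SE 0.16, adjusted p = 0.154, limma).

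CHORDC1, a co-chaperone of HSP90, had 1.38, 1.31 and 1.31 FPKM in PA libraries and 2.16, 3.85 and 2.99 FPKM in control libraries. HSPA4, an HSP110 exchange factor, had 27.6, 24.5 and 23.0 FPKM in PA libraries and 33.4, 44.4 and 47.0 FPKM in control libraries. HSPH1 had 6.7, 5.92 and 6.44 FPKM in PA libraries and 7.61, 16.1 and 14.1 FPKM in control libraries. In all of these the PA libraries were tightly grouped and lower than any control library, with log2 changes of -0.76 for CHORDC1 (SE 0.17, adjusted p = 0.0102), -0.70 for HSPA4 (SE 0.16, adjusted p = 0.013) and -0.83 for HSPH1 (SE 0.27, adjusted p = 0.0416, limma). HSPA9, the mitochondrial HSP70, had 49.0, 43.6 and 51.3 FPKM in PA libraries and 60.2, 67.6 and 77.4 FPKM in control libraries and fell (log2 -0.50, SE 0.16, adjusted p = 0.0353, limma). HSF2, an HSF1 relative, had 2.99, 3.06 and 4.16 FPKM in PA libraries and 4.41, 5.71 and 4.42 FPKM in control libraries and fell (log2 -0.41, SE 0.13, adjusted p = 0.0368, limma). HSF1, the main activator of the heat shock genes, had 55.9, 55.6 and 46.7 FPKM in PA libraries and 38.5, 29.9 and 35.2 FPKM in control libraries and rose (log2 0.60, SE 0.18, adjusted p = 0.0336, limma). All 3 were without overlap between groups, and HSF1 shares 139 exon bases with DGAT1 on the opposite strand. TRAP1 had 101, 95.97 and 84.2 FPKM in PA libraries and 67.4, 53.0 and 60.0 FPKM in control libraries, also without overlap (log2 0.63, SE 0.19, adjusted p = 0.0316, limma).

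The inducible genes were uneven in the control group. HSPA1A had 96.2, 82.2 and 98.9 FPKM in PA libraries and 65.1, 212 and 195 FPKM in control libraries, and HSPA6 had 0.707, 0.865 and 0.766 FPKM in PA libraries and 0.347, 3.6 and 4.56 FPKM in control libraries. Control replicate 1 lay below all 3 PA libraries for both genes, while the other 2 control libraries lay above them, and neither gene passed (adjusted p = 0.179 for HSPA1A and 0.10 for HSPA6, limma). Without control replicate 1, the log2 change was -1.13 for HSPA1A (adjusted p = 0.000863), -1.51 for HSPA6 (adjusted p = 0.000159) and -1.15 for the sum of HSPA1A and HSPA1B, against -0.58 for that sum with it, and 20 members fell. Of all 11856 tested genes, 1800 fell without control replicate 1, against 1754 with every library. Without control replicate 2, without control replicate 3 or without PA replicate 2, 2, 3 and 3 members fell. Falls over all tested genes also dropped in those fits, to 445, 551 and 497. Among the 11 falls, those of DNAJA1 and CCT8 held on leaving out each library in turn. The members that fell had a median GC content of 43.1% and the members that rose 60.3%, and GC content and gene length accounted for 43.3% of the variance of the log2 changes of all tested genes. With that trend removed from each library, 7 of the 11 falls and neither rise held, and with library totals set equal 18 members fell, while the median of all tested genes moved to -0.18. Over all 11856 tested genes, 1137 fell with the trend removed and 2905 with totals set equal.

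**Figure D3:**
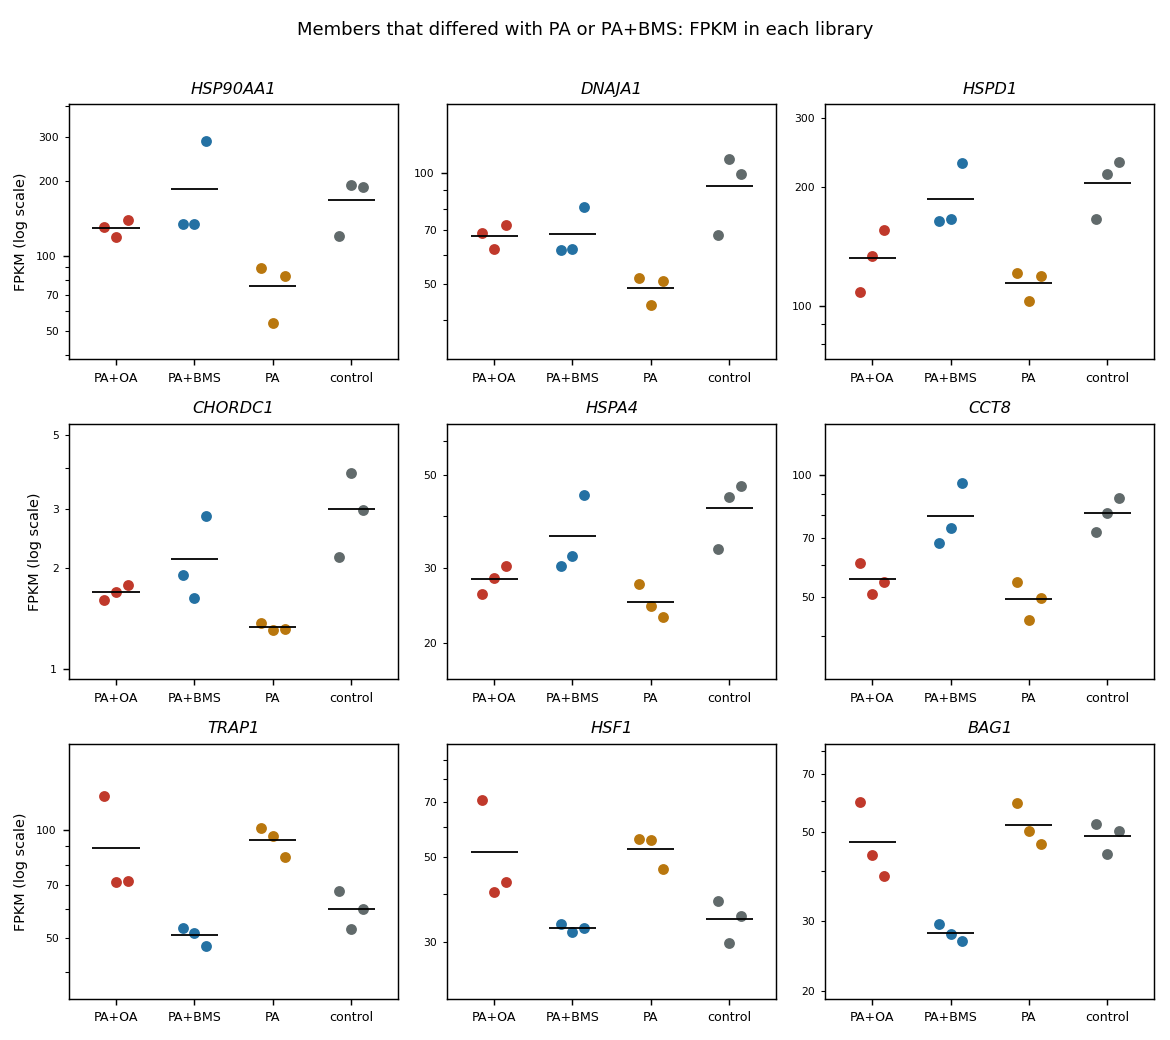
FPKM on a log scale (y axis) in each library (points, by group on the x axis, lines at group means) of 9 members that changed in PA or PA+BMS cells, chosen after their values were seen. HSP90AA1, DNAJA1, HSPD1, CHORDC1, HSPA4 and CCT8 are lower in every PA library than in any control library, and TRAP1, HSF1 and BAG1 are lower in every PA+BMS library than in any PA library.

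BMS-309403 with palmitate was compared with palmitate alone. HSPA1A and HSPA1B of the HSP70 family, the J-domain protein DNAJB1 and the exchange factor BAG3 fell, as did TRAP1, BAG1, HSF1, FKBP4, DNAJB2, AHSA1 and DNAJA3, 11 of 39 members in all (28.2%, against 29.4% of all tested genes). HSP90AA1, HSPD1, HSPA9, HSPA4, HSPA4L, both HSPA14 rows, DNAJB4, DNAJA1, HSF2 and the TRiC subunits CCT8, CCT2 and TCP1 rose, 13 members (33.3%, against 25.2%). These shares were near those of all genes, and the median log2 change was -0.089 over the members and -0.044 over all tested genes.

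HSPA1A had 34.8, 29.7 and 28.6 FPKM in PA+BMS libraries and 96.2, 82.2 and 98.9 FPKM in PA libraries, and HSPA1B had 24.6, 22.1 and 24.3 FPKM in PA+BMS libraries and 66.9, 55.0 and 63.6 FPKM in PA libraries. Every PA+BMS library lay below every PA library, at 0.336 of the PA mean for HSPA1A (log2 -1.54, SE 0.33, adjusted p = 0.00611, limma) and 0.383 for HSPA1B (log2 -1.35, SE 0.36, adjusted p = 0.0113, limma). Their sum averaged 54.7 ± 4.12 FPKM in PA+BMS and 154 ± 14.8 FPKM in PA libraries (SD, n = 3 each; log2 -1.48, SE 0.35, adjusted p = 0.00772, limma). DNAJB1 had 71.7, 68.9 and 72.8 FPKM in PA+BMS libraries and 138, 113 and 113 FPKM in PA libraries and fell (log2 -0.75, SE 0.21, adjusted p = 0.0142, limma). HSPA6 had 0.266, 0.223 and 0.128 FPKM in PA+BMS libraries and 0.707, 0.865 and 0.766 FPKM in PA libraries, without overlap and short of the threshold (log2 -0.56, SE 0.39, adjusted p = 0.225, limma). BAG3 had 29.7, 29.9 and 24.0 FPKM in PA+BMS libraries and 41.6, 42.2 and 43.6 FPKM in PA libraries and fell (log2 -0.60, SE 0.18, adjusted p = 0.0167, limma).

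TRAP1 had 53.4, 51.6 and 47.3 FPKM in PA+BMS libraries and 101, 95.97 and 84.2 FPKM in PA libraries and fell (log2 -0.87, SE 0.19, adjusted p = 0.00641, limma). BAG1, a nucleotide exchange factor of HSP70, had 29.5, 27.8 and 26.8 FPKM in PA+BMS libraries and 59.4, 50.3 and 46.8 FPKM in PA libraries and fell (log2 -0.87, SE 0.15, adjusted p = 0.00365, limma). The PA+BMS libraries of both genes lay close together and below every PA library. HSF1 had 33.5, 32.0 and 32.6 FPKM in PA+BMS libraries and 55.9, 55.6 and 46.7 FPKM in PA libraries and fell (log2 -0.67, SE 0.18, adjusted p = 0.0128, limma), while HSF2 had 5.43, 5.39 and 6.51 FPKM in PA+BMS libraries and 2.99, 3.06 and 4.16 FPKM in PA libraries and rose (log2 0.63, SE 0.13, adjusted p = 0.00528, limma). HSP90AA1 had 135, 134 and 290.4 FPKM in PA+BMS libraries and 89.6, 53.9 and 83.2 FPKM in PA libraries and rose (log2 1.23, SE 0.30, adjusted p = 0.00845, limma). Its highest library was PA+BMS replicate 3, and the other PA+BMS libraries were still above every PA library. HSPD1 had 164, 166 and 230.0 FPKM in PA+BMS libraries and 121, 103 and 119 FPKM in PA libraries and rose (log2 0.69, SE 0.18, adjusted p = 0.0115, limma), with PA+BMS replicate 3 again the highest.

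In this comparison members of high and low GC content went in opposite directions: the 13 that rose had a GC content of 33.1 to 45.9% and the 11 that fell one of 48.6 to 64.7%, with no overlap. GC content and gene length accounted for 55.7% of the variance of the log2 changes of all tested genes, and their part in the members' changes was not tested beyond the following fits. With that trend removed from each library, 4 members rose and 4 fell. Of all 11856 tested genes, 1331 rose and 1423 fell there. HSP90AA1, HSPD1 and CCT8 still rose and TRAP1, BAG1 and FKBP4 still fell, HSPB8 now rose and HSPA8 fell. The falls of HSPA1A (log2 -0.96, adjusted p = 0.0881), HSPA1B (-0.78, adjusted p = 0.178), DNAJB1 (-0.44, adjusted p = 0.155), BAG3 (-0.081, adjusted p = 0.806), HSF1 (-0.20, adjusted p = 0.137), DNAJB2 (-0.085, adjusted p = 0.60), AHSA1 (-0.079, adjusted p = 0.446) and DNAJA3 (-0.24, adjusted p = 0.124) did not pass there by limma. With library totals set equal, 16 members rose and 4 fell, the median of all tested genes moving to 0.24. Of all 11856 tested genes, 4582 rose and 1203 fell there. The falls of HSPA1B (log2 -0.98, adjusted p = 0.0520), DNAJB1 (-0.38, 0.159), BAG3 (-0.23, 0.406), FKBP4 (-0.21, 0.0768) and DNAJB2 (-0.16, 0.368) did not pass by limma with totals set equal. Those of AHSA1 and DNAJA3 did not pass either and changed sign (log2 0.011 for each). Without PA+BMS replicate 3, 5 members rose and 7 fell, and without PA replicate 2 or PA replicate 3, 6 and 7 rose. Calls over all 11856 tested genes dropped as well. Without PA+BMS replicate 3, 1683 rose and 2024 fell, and without PA replicate 2 or PA replicate 3, 1664 and 2380 rose, against 2982 rises and 3481 falls with every library. The bile duct marker KRT7 fell in the same comparison, to 167 ± 24.6 FPKM in PA+BMS, against 614 ± 49.7 FPKM in PA libraries (SD, n = 3 each), and its part in these changes was not tested.

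**Figure D4:**
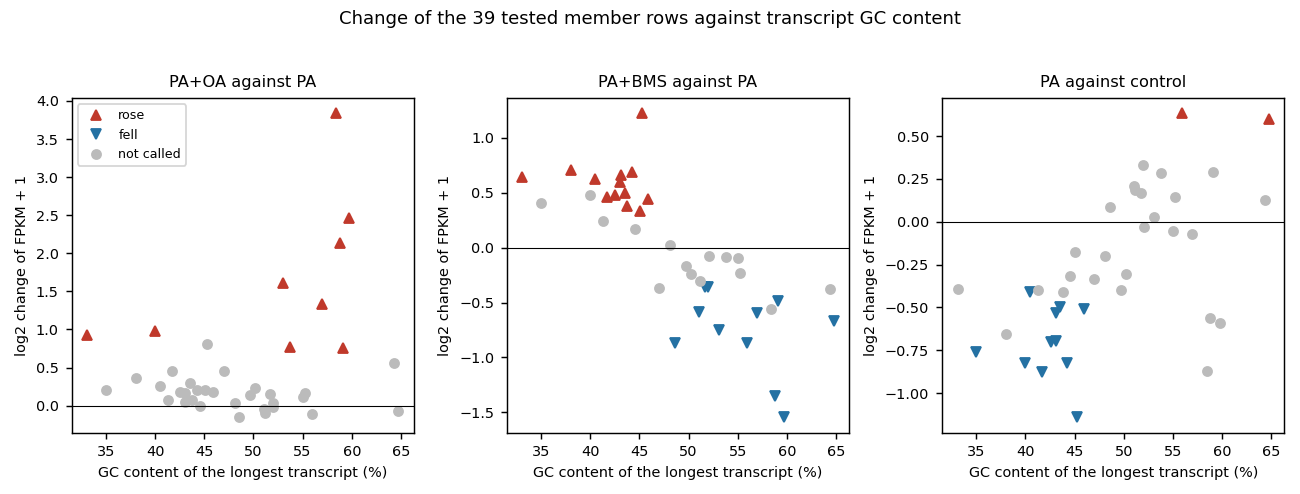
Log2 change of FPKM + 1 (y axis) of the 39 tested member rows against the GC content of the longest transcript (x axis, %), in PA+OA against PA, PA+BMS against PA and PA against control, with rises, falls and rows not called marked. In PA+BMS against PA rises lie at 33.1 to 45.9% GC and falls at 48.6 to 64.7%, whereas the 9 rises in PA+OA against PA span 33.1 to 59.7%.

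PA+OA and PA+BMS cells were also each set against untreated cells, and these comparisons share control libraries with that of PA. In PA+OA cells 12 of 39 members rose (30.8%, against 17.5% of all tested genes) and 5 fell (12.8%, against 18.8%). HSPA6 averaged 24.6 ± 3.70 FPKM in PA+OA and 2.83 ± 2.21 FPKM in control libraries (SD, n = 3 each; log2 2.97, SE 0.39, adjusted p = 0.000192, limma). The HSPA1A and HSPA1B sum was 3.002-fold higher (log2 1.77, SE 0.35, adjusted p = 0.00264). DNAJB1 (log2 1.63), BAG3 (1.26), HSPB8 (1.05), DNAJB2 (1.04), HSPB1 (0.68), DNAJB4 (0.53), HSF1 (0.53), DNAJA3 (0.37) and AHSA1 (0.33) rose as well. HSPD1 (log2 -0.62), CHORDC1 (-0.55), CCT8 (-0.53), HSPA4 (-0.53) and HSPA14 (ENSG00000187522, -0.48) fell. Of the 12 rises, those of HSPA6, HSPA1A, HSPA1B, DNAJB1, BAG3, HSPB8 and DNAJB2 held on leaving out each library in turn, and of the falls none did. The rise of AHSA1 held in 2 of those 12 fits and that of HSF1 in 4. With the GC and length trend removed, 10 rises and 4 falls held, those of HSPB1, AHSA1 and CHORDC1 being lost. With library totals set equal, 8 rises and 5 falls held. Of all 11856 tested genes, 2106 rose and 2433 fell with the trend removed, and 1228 rose and 3275 fell with totals equal. Without PA+OA replicate 1 or control replicate 3, 7 members rose, and of all 11856 tested genes 1644 and 1377 did. The member falls numbered 0 without control replicate 2 or control replicate 3, where 1218 and 1290 of all tested genes fell. They numbered 1 without PA+OA replicate 2, 2 without PA+OA replicate 1 and 11 without control replicate 1. Of all tested genes, 1880, 1696 and 2183 fell in those fits.

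In PA+BMS cells 8 of 39 members fell (20.5%, against 6.25% of all tested genes). None rose, by limma, at an unadjusted p under 0.05 or by voom, against 4.77% of all tested genes that rose by limma. HSPA1A averaged 31.0 ± 3.30 FPKM in PA+BMS and 157 ± 80.4 FPKM in control libraries (SD, n = 3 each; log2 -2.14, SE 0.33, adjusted p = 0.00192, limma). HSPA1B (log2 -1.91), HSPA6 (-1.43), BAG1 (-0.78), DNAJB1 (-0.73), HSPA8 (-0.71), BAG3 (-0.67) and HSPE1 (-0.54) also fell. HSPA8 had 296, 317 and 333 FPKM in PA+BMS libraries and 405, 604 and 556 FPKM in control libraries, every PA+BMS library lying below every control library (log2 -0.71, SE 0.15, adjusted p = 0.0128, limma). HSPE1 had 17.4, 17.6 and 12.8 FPKM in PA+BMS libraries and 22.8, 23.9 and 23.5 FPKM in control libraries, close to the threshold (log2 -0.54, SE 0.16, adjusted p = 0.0499, limma). DNAJB1 was also close to the threshold (adjusted p = 0.0490, limma). The falls of HSPE1 and DNAJB1 each held in 2 of the 12 fits that left out a library. The falls of HSPA1A, HSPA1B and BAG1 held on leaving out each library in turn. In all, 3 members fell without PA+BMS replicate 1, control replicate 2 or control replicate 3, and 4 without PA+BMS replicate 2 or PA+BMS replicate 3. Of all 11856 tested genes, 440, 455, 397, 445 and 547 fell in those fits, in that order. With the GC and length trend removed 5 of the 8 falls held, those of DNAJB1, BAG3 and HSPA6 being lost. With library totals set equal 4 held, those of HSPA1A, HSPA1B, BAG1 and HSPA6. The members that fell had a median GC content of 55.0% and those not called 45.2%.

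**Figure D5:**
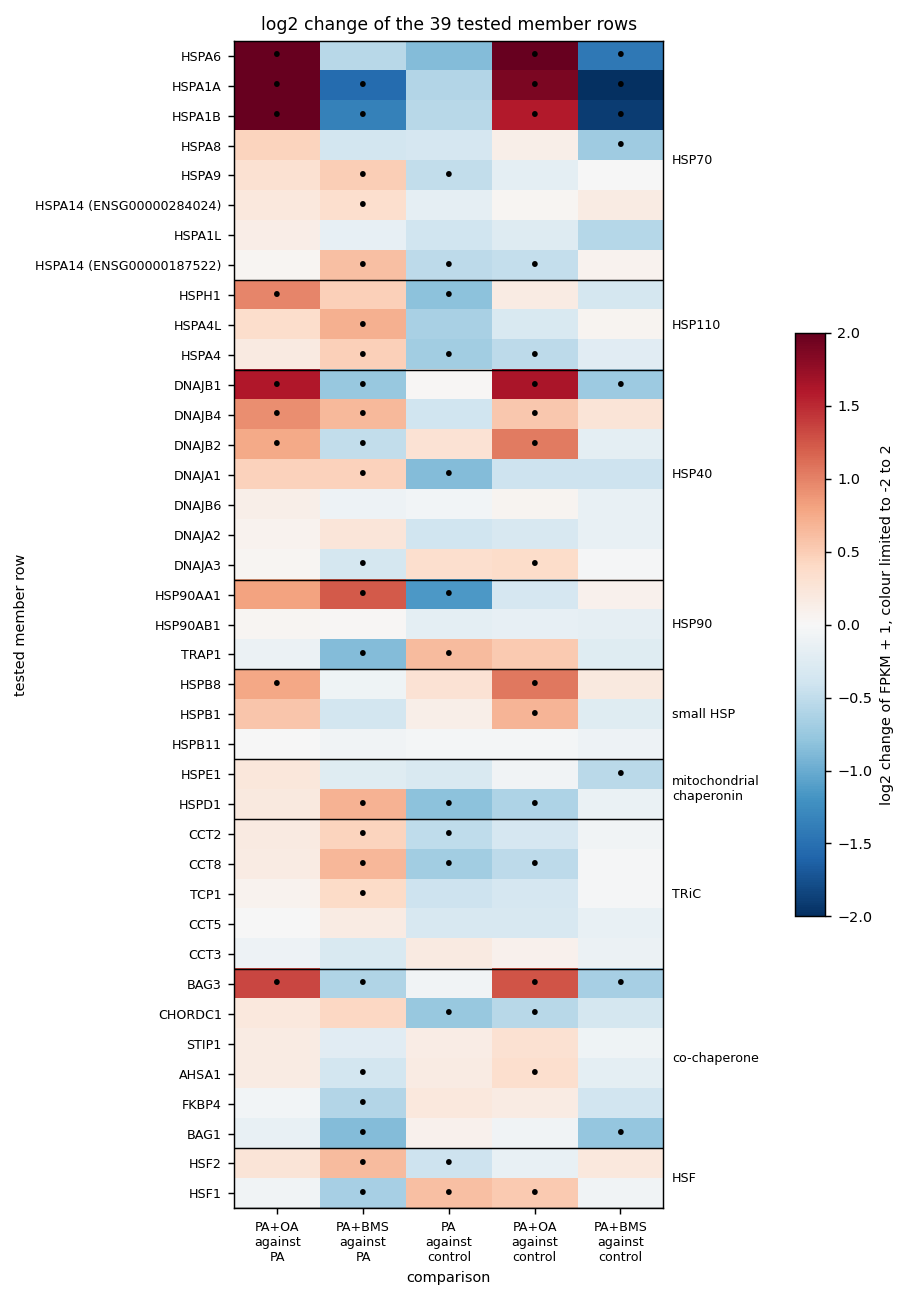
Log2 change of FPKM + 1 (colour, limited to -2 to 2) of the 39 tested member rows (y axis, grouped by family) in 5 comparisons (x axis), with a dot where limma's adjusted p was under 0.05. In PA+OA against PA the dots are the 9 rises from HSPA6 (3.84) to DNAJB2 (0.75), and in PA+BMS against control they are 8 falls.

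By family, the remaining members add the following. Of the HSP70 proteins, HSPA1L, an HSP70 known best from testis, stayed between 0.357 and 1.71 FPKM in all libraries and was called in no comparison. Among the HSP40 proteins, DNAJB6, a suppressor of protein aggregation, and DNAJA2 were called in none, with group means of 5.85 to 6.92 FPKM for DNAJB6 and 14.8 to 19.9 FPKM for DNAJA2. HSP90AB1 had the highest FPKM of the members in every library, an order that depends on the gene lengths used. Its group means were 917 ± 62.5 FPKM in PA+OA, 913 ± 64.0 in PA+BMS, 894 ± 46.0 in PA and 1035 ± 142 FPKM in control (SD, n = 3 each), and it was called in no comparison. Of the HSP90 co-chaperones, STIP1, which bridges HSP70 and HSP90, was called in none, and FKBP4, an immunophilin, averaged 60.3 ± 1.04 FPKM in PA+BMS and 91.4 ± 10.9 FPKM in PA libraries and fell (log2 -0.59, SE 0.15, adjusted p = 0.00941, limma). TRiC subunits changed in PA+OA against PA by -0.094 to 0.18 on the log2 scale and none was called. CCT8 had 60.9, 50.9 and 54.3 FPKM in PA+OA libraries, 68.1, 74.3 and 95.7 FPKM in PA+BMS libraries, 54.6, 43.8 and 49.6 FPKM in PA libraries and 72.5, 80.8 and 88.1 FPKM in control libraries, and the PA+BMS and control libraries lay above every PA library. CCT3 and CCT5 were called in no comparison, and HSPB11, a small protein of the ciliary transport machinery despite its name, was not either.

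The members together made up 1.24, 1.55 and 1.56% of the summed FPKM in PA+OA libraries, 1.14, 1.19 and 1.31% in PA+BMS, 1.01, 0.930 and 1.02% in PA and 1.12, 1.57 and 1.56% in control libraries. PA libraries held the smallest shares but not the smallest sums. The members summed to 4997, 4684 and 4665 FPKM in PA+OA, 3013, 3089 and 3442 in PA+BMS, 3583, 3226 and 3269 in PA and 3301, 4213 and 4393 FPKM in control libraries. All genes together summed to 299034 to 402688 FPKM in PA+OA, 258747 to 264111 in PA+BMS, 320299 to 355834 in PA and 267959 to 293995 FPKM in control libraries. HSP90AB1, HSPA8, CCT3, HSPB1 and HSPD1 gave 46.5 to 48.9% of the members' FPKM in PA+OA libraries and 56.0 to 59.9% in all others.

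Other chaperones and co-chaperones, a list of 50 of which 43 were tested, were also compared between PA+OA and PA. None of the 43 rose by limma (4 at an unadjusted p under 0.05 and 1 by voom), where 4.01% of all tested genes rose. By limma 1 of the 43 fell, where 3.91% of all tested genes fell. It was DNAJC11, a mitochondrial J-domain protein, at 11.96 ± 0.40 FPKM in PA+OA and 15.4 ± 0.73 FPKM in PA libraries (SD, n = 3 each). Its log2 change was -0.34 (SE 0.09, adjusted p = 0.0435, limma), which voom did not call. The next smallest p-values were those of DNAJA4, a J-domain protein (4.70 and 3.03 FPKM in PA+OA and PA libraries, adjusted p = 0.0517, limma), DNAJC5, the cysteine string protein (27.2 and 36.4 FPKM, 0.0744), and GRPEL2, a mitochondrial exchange factor (7.09 and 5.17 FPKM, 0.098). The list's median log2 change was 0.010. Elsewhere by limma, 5 of the 43 rose and 5 fell in PA against control (12.8 and 14.8% of all tested genes). In PA+BMS against PA 10 rose and 13 fell (25.2 and 29.4% of all tested genes), and in PA+OA against control 6 and 5 (17.5 and 18.8%). In PA+BMS against control 2 rose and none fell (4.77 and 6.25% of all tested genes), where 4 fell at an unadjusted p under 0.05 and 0 by voom. Among heat-inducible genes outside the members, DEDD2 averaged 24.3 FPKM in PA+OA and 14.95 FPKM in PA libraries (adjusted p = 0.0513, limma), ZFAND2A 10.8 FPKM in PA+OA and 8.27 FPKM in PA libraries (adjusted p = 0.229) and SERPINH1, the collagen chaperone HSP47, 66.1 FPKM in PA+OA and 55.4 FPKM in PA libraries (adjusted p = 0.384), and none of these passed the test.

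Reads of some members may belong in part to other genes. Exons of 11 member rows overlap a gene that reached 1 FPKM in a library, and 12 members have annotated pseudogenes named after them. No 150-base window of HSPA1A or HSPA1B transcripts was found in HSPA1L, HSPA6, HSPA8 or HSPA2.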

How the data were processed

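The 12 HepaRG libraries hold poly(A) RNA, and read pairs of 150 bp came from a NovaSeq, per the labels' protocols. Named in the submitters' processing notes, with no roles, are HISAT2 2.0.5, featureCounts 1.5.0-p3 and CASAVA. For the genome build and strand setting, no statement was found in the sources used here. The deposited values are FPKM per gene. IDs, names, starts and ends of all 58735 genes equalled those of GENCODE 29, so positions are on GRCh38. Multiplied by gene length, 100% of values were whole multiples of what 1 read is worth (tolerance 0.01 read). The library size behind the authors' deposited FPKM was 0.827 to 1.14 times the recovered reads per library. For a gene of 1 kb, a floor of 3 reads is 0.132 to 0.198 FPKM over the libraries, which covers counting error only.

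From the deposited FPKM, log2(FPKM + 1) of genes reaching 1 FPKM in 3 or more libraries was fitted with limma 3.58.1 in R 4.3.3, using all 12 libraries with a coefficient for each group, which left 8 residual degrees of freedom. The eBayes step used a trend, and p-values were adjusted by Benjamini-Hochberg over all tested genes within each of 5 comparisons, at 0.05. The fit was tested on simulated counts with the same dispersion for every gene, no GC trend and no library that stands apart. That test cannot show how often the fit errs in these data. No pair of replicates agreed within sampling noise (chi-square per gene 3.63 to 74.8). HSPA1A and HSPA1B, near-identical copies, were also summed. Alternatives were a pseudocount of 0.1, no filter or a 5 FPKM one, scaling by median of ratios or to equal library totals, fits of only the 2 groups compared, a replicate block, voom on recovered reads, and removal of the trend with gene length and GC content by natural splines of 5 degrees of freedom. Each library was left out in turn, as were PA+OA replicate 1 and PA+BMS replicate 3 together. Python 3.11.15 with matplotlib 3.10.9 drew the figures.

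Members and lists were chosen with earlier results of these data known. Values in every library are given for up to 10 members with the largest change among those called in PA+OA against PA (9 were called), the 6 largest in PA against control and in PA+BMS against PA, the HSPA1A and HSPA1B sum, and HSPA8, HSP90AB1, HSPD1, HSPE1, HSPA9, HSF1 and HSF2. CCT8 and the members named by family were added after their values were seen. From a list of other chaperones and one of further heat-inducible genes, the 4 genes with the smallest p in PA+OA against PA were to be named; 1 gene of the second list, and that list's counts, are not reported here.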

Additional observations from a re-analysis of the deposited data

How the results depend on the processing

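Counts of members that rose or fell depended on the processing most in the comparisons with control and in PA+BMS against PA. Leaving out each library in turn gave 0 to 4 rises and 2 to 20 falls in PA against control, 8 to 11 rises and 0 falls in PA+OA against PA, 5 to 14 rises and 7 to 13 falls in PA+BMS against PA, 7 to 14 rises and 0 to 11 falls in PA+OA against control, and 0 rises and 3 to 9 falls in PA+BMS against control. Without a filter, PA against control gave 0 rises and 6 falls, PA+BMS against PA 7 rises, PA+OA against control 7 rises and 1 fall, and PA+BMS against control 4 falls. Of all 30696 genes tested there, 715 rose and 884 fell in PA against control, and 2155 rose in PA+BMS against PA. In PA+OA against control 1863 rose and 1648 fell, and in PA+BMS against control 521 fell. With library totals set equal there were 18 falls in PA against control, 4 falls in PA+BMS against PA, 11 falls in PA+OA against control and 4 falls in PA+BMS against control. All 11856 tested genes gave 2905, 1203, 3275 and 613 falls, in the same order. Only the 2 groups compared gave 5 rises and 17 falls in PA against control and 5 falls in PA+BMS against control. For all tested genes these counts were 3083 rises and 2823 falls, and 719 falls. With the GC and length trend removed there were 0 rises in PA against control, 4 rises and 4 falls in PA+BMS against PA, and 1 rise in PA+BMS against control. For all tested genes these counts were 811 rises, 1331 rises and 1423 falls, and 1144 rises. Without both libraries that stand apart there were 5 rises and 17 falls in PA against control, 14 rises and 1 fall in PA+OA against PA, 8 rises in PA+BMS against PA and 1 rise in PA+BMS against control. For all tested genes these counts were 3550 rises and 3173 falls, 1328 rises and 1688 falls, 2967 rises, and 905 rises. Median-of-ratios scaling used the same factor, 1.012, in all libraries, so that alternative could only repeat the main fit and tests nothing. The replicate numbers were not shown to pair the libraries: 9 of 18 same-numbered pairs correlated above 0.1 (range -0.28 to 0.56), and with the replicate block PA against control gave 4 rises and 15 falls. For the cause of these differences, no test was made. Of the log2 changes of single members and of the HSPA1A and HSPA1B sum, 263 lost and 61 gained the threshold over all alternatives, and 45 changed sign. Of these 45, 2 had passed the threshold: with totals set equal, PA+BMS against PA gave 0.011 for AHSA1 and 0.011 for DNAJA3. The other 43 had not passed. In PA against control, leaving out libraries in turn gave -0.0074 to 0.16 for BAG1, -0.31 to 0.060 for BAG3 (0.032 without control replicate 3) and -0.27 to 0.21 for DNAJB1 (-0.069 without PA replicate 1); equal totals gave -0.19 for BAG1 and -0.25 for DNAJB1, and removing the GC trend -0.22 for DNAJB1 and -0.019 for DNAJB2. In PA+OA against PA, leaving out libraries gave -0.32 to 0.073 for HSF1 (0.029 without PA+OA replicate 3), -0.37 to 0.019 for TRAP1 (0.013 without PA+OA replicate 3) and -0.016 to 0.082 for HSP90AB1, which had -0.0016 with the GC trend removed. In PA+BMS against PA, removing the GC trend gave -0.11 for CHORDC1, 0.0015 for HSPA6, 0.30 for HSPB8 and -0.049 for HSPH1, and equal totals 0.0094 for HSPA8, 0.27 for HSPB8 and 0.12 for HSPE1. HSP90AB1 ranged from -0.024 to 0.077 on leaving out libraries and had -0.024 without both that stand apart. In PA+OA against control, the ranges were -0.24 to 0.064 for BAG1, -0.057 to 0.23 for HSPA8, -0.23 to 0.078 for HSPE1 and -0.14 to 0.36 for HSPH1 (-0.038 without PA+OA replicate 3); removing the GC trend gave 0.037 for BAG1 and 0.11 for HSPA9, and equal totals -0.13 for HSPA8 and -0.061 for HSPH1. In PA+BMS against control, the ranges were -0.17 to 0.011 for HSF1, -0.28 (without PA+BMS replicate 3) to 0.27 for HSP90AA1 (-0.14 without control replicate 1) and -0.10 to 0.091 for HSPA9 (0.074 and 0.028 without PA+BMS replicates 1 and 2). Equal totals gave 0.029 for HSF1 and 0.099 for HSPA9, removing the GC trend 0.083 for HSF1, and leaving out both libraries that stand apart -0.28 for HSP90AA1. Where reads are few, as for HSPA6 outside PA+OA, CRYAB and HSPA2, depth limits what can be told.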
